A study of Mus musculus with 20 samples.

Results

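The report follows 9 genes: 7 genes of naive and resting T cells (Tcf7, Lef1, Klf2, Klf3, S1pr1, Dapl1 and Igfbp4) and 2 genes that T cells raise on activation (Cd69 and Cd44), which served as the contrast. They were looked up by gene symbol, and all 9 were found among the 16784 genes counted in mesenteric lymph nodes (mLNs) and among the 16740 genes counted in spleen and peripheral lymph nodes (pLNs). Each gene passed the only filter, at least 1 read in total, in both tissues. The libraries were poly(A) RNA-seq of sorted CD4+ T cells from C57BL/6 mice aged 14 weeks. DKO mice were Tet2/3 fl/fl Foxp3 Cre, in which a YFP-Cre fusion placed in the Foxp3 gene drives loss of the DNA-demethylating dioxygenases Tet2 and Tet3 in cells that express Foxp3. The controls, called WT here, were Foxp3 Cre WT mice, so they carried the same YFP-Cre but intact Tet2 and Tet3. From each mouse line CD4+YFP+ cells (Treg cells) and CD4+YFP- cells (CD4+Foxp3- cells) were sorted. The CD4+Foxp3- cells of DKO mice are therefore cells outside the gate for the deletion, from the same animals, and former Treg cells that lost YFP would fall in that gate. By tracing cells that had once expressed the Cre, the study found more such former Treg cells in DKO mice than in heterozygous littermates. It also reports strongly lowered Tet2 and Tet3 mRNA in CD4+YFP- cells of DKO mice, though elsewhere it describes the deletion as absent from CD4+YFP- cells. They are thus not a purely undeleted comparison. Each of the 4 groups had 3 replicates in mLNs and 2 in spleen and pLNs, and the 2 tissues were separate tables that were fitted apart. The study describes the DKO animals of the spleen and pLN set as littermates that differed in the severity of splenomegaly, and the labels do not say which replicate came from which.

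A naive T cell keeps a gene programme that holds it quiescent and recirculating. Tcf7 and Lef1 encode TCF-1 and LEF-1, related HMG-box transcription factors that can bind beta-catenin and that keep naive and memory potential. Klf2 encodes a zinc-finger factor of quiescence that activates S1pr1, whose product, the sphingosine-1-phosphate receptor, lets T cells leave lymph nodes. Klf3 encodes a related zinc-finger factor that recruits the co-repressor CtBP. Dapl1, a small relative of the death-associated protein DAP, and Igfbp4, a secreted binding protein for insulin-like growth factors, are transcripts abundant in naive T cells and low in effector cells. On activation, Cd69 is raised within hours and its product pulls S1PR1 off the surface, while Cd44, a hyaluronan receptor, stays high on effector and memory cells. Treg cells in the periphery include both a resting form that resembles naive cells and an activated effector form.

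The libraries held 9998478 to 15449158 counted reads in mLNs and 13525932 to 15253141 in spleen and pLNs. A level of 3 reads, taken as the floor of detection, was 0.203 to 0.299 CPM (counts scaled to the library total) in mLNs and 0.172 to 0.241 in spleen and pLNs, under every member level given here. Foxp3 stood at 277 to 329 CPM in the 6 mLN Treg libraries and at 0.211 to 2.75 CPM in the 6 mLN CD4+Foxp3- libraries and Cd3e and Cd4 were high in all groups. The targeted genes were not called between DKO and WT Treg cells. The log2 fold change was 0.0083 for Tet2 (adjusted p = 1) and -0.30 ± 0.21 SE for Tet3 (adjusted p = 0.368) in mLNs, and 1.66 ± 0.59 for Tet2 (adjusted p = 0.144) and 0.69 ± 0.21 for Tet3 (adjusted p = 0.101) in spleen and pLNs. These counts sum reads over all exons, so they do not check the loss of the floxed exons. DKO libraries of 1 group differed from each other far more than WT libraries did. Over the 500 most variable genes, DKO CD4+Foxp3- replicate 2 from mLNs lay at a mean distance of 77.4 (log2 CPM units) from the WT libraries of its cell type against 36.4 for replicate 1, and DKO CD4+Foxp3- replicate 1 from spleen and pLNs lay at 78.8 against 38.3 for replicate 2, while WT libraries lay 12.8 to 17.7 from their own group.

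Levels between genes were compared only per transcript length, as the TPM values (transcripts scaled to length and library) deposited by the authors. Tcf7 led in every WT group. In WT CD4+Foxp3- cells from mLNs it stood at 1728 ± 55.3 TPM (SD, n = 3), followed by Igfbp4 at 1219 ± 83.7 TPM and S1pr1 at 467 ± 32.7 TPM. Klf2 (363 ± 27.0 TPM) and Lef1 (357 ± 18.3 TPM) came next and did not differ beyond their spread. Below Dapl1 (244 ± 19.3 TPM), Cd69 (83.4 ± 6.38 TPM) and Klf3 (78.1 ± 11.1 TPM) overlapped, and Cd44 was lowest at 38.0 ± 4.71 TPM. WT Treg cells from mLNs showed another order: Tcf7 (688 ± 16.4 TPM) was followed by Igfbp4 (304 ± 73.4 TPM), S1pr1 (295 ± 35.1 TPM) and Klf2 (246 ± 35.5 TPM), whose spreads overlapped. Lef1 followed at 109 ± 9.28 TPM. The TPM of Cd69 (90.2 ± 8.71), Klf3 (86.4 ± 12.04) and Cd44 (81.1 ± 5.27) could not be ordered, and Dapl1 was last at 21.0 ± 2.04. Thus Dapl1 lay above Cd69 and Cd44 per length in WT CD4+Foxp3- cells and below both in WT Treg cells.

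In part the order differed in spleen and pLNs. In WT CD4+Foxp3- cells Tcf7 (954 ± 59.5 TPM, n = 2), Igfbp4 (724 ± 44.1 TPM) and S1pr1 (388 ± 31.5 TPM) again stood first. Klf2 (230.2 ± 29.5 TPM) and Dapl1 (207 ± 23.5 TPM) did not differ beyond their spread, and Lef1 (173 TPM) followed. Klf3 (71.5 TPM), Cd44 (66.4 ± 10.6 TPM) and Cd69 (53.5 ± 3.58 TPM) were lowest. Cd44, which had been last in mLNs, overlapped Klf3 and Cd69 within the spread and could not be ordered against them. In WT Treg cells S1pr1 (302 ± 27.7 TPM) stood above Igfbp4 (165 ± 30.4 TPM) and Klf2 (157 ± 24.8 TPM), and Dapl1 was again last at 13.6 ± 2.43 TPM. Lef1 stood at 55.5 ± 0.277 TPM there, below Cd69 (72.1 TPM), Cd44 (68.8 TPM) and Klf3 (65.1 TPM), over which it had stood in mLNs. The transcript length implied by counts and TPM was 1.501-fold larger for Lef1 in the mLN table than in the other table, whereas it was equal for the other 8 genes, so the TPM of Lef1 is comparable within a tissue only.

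**Figure D1:**
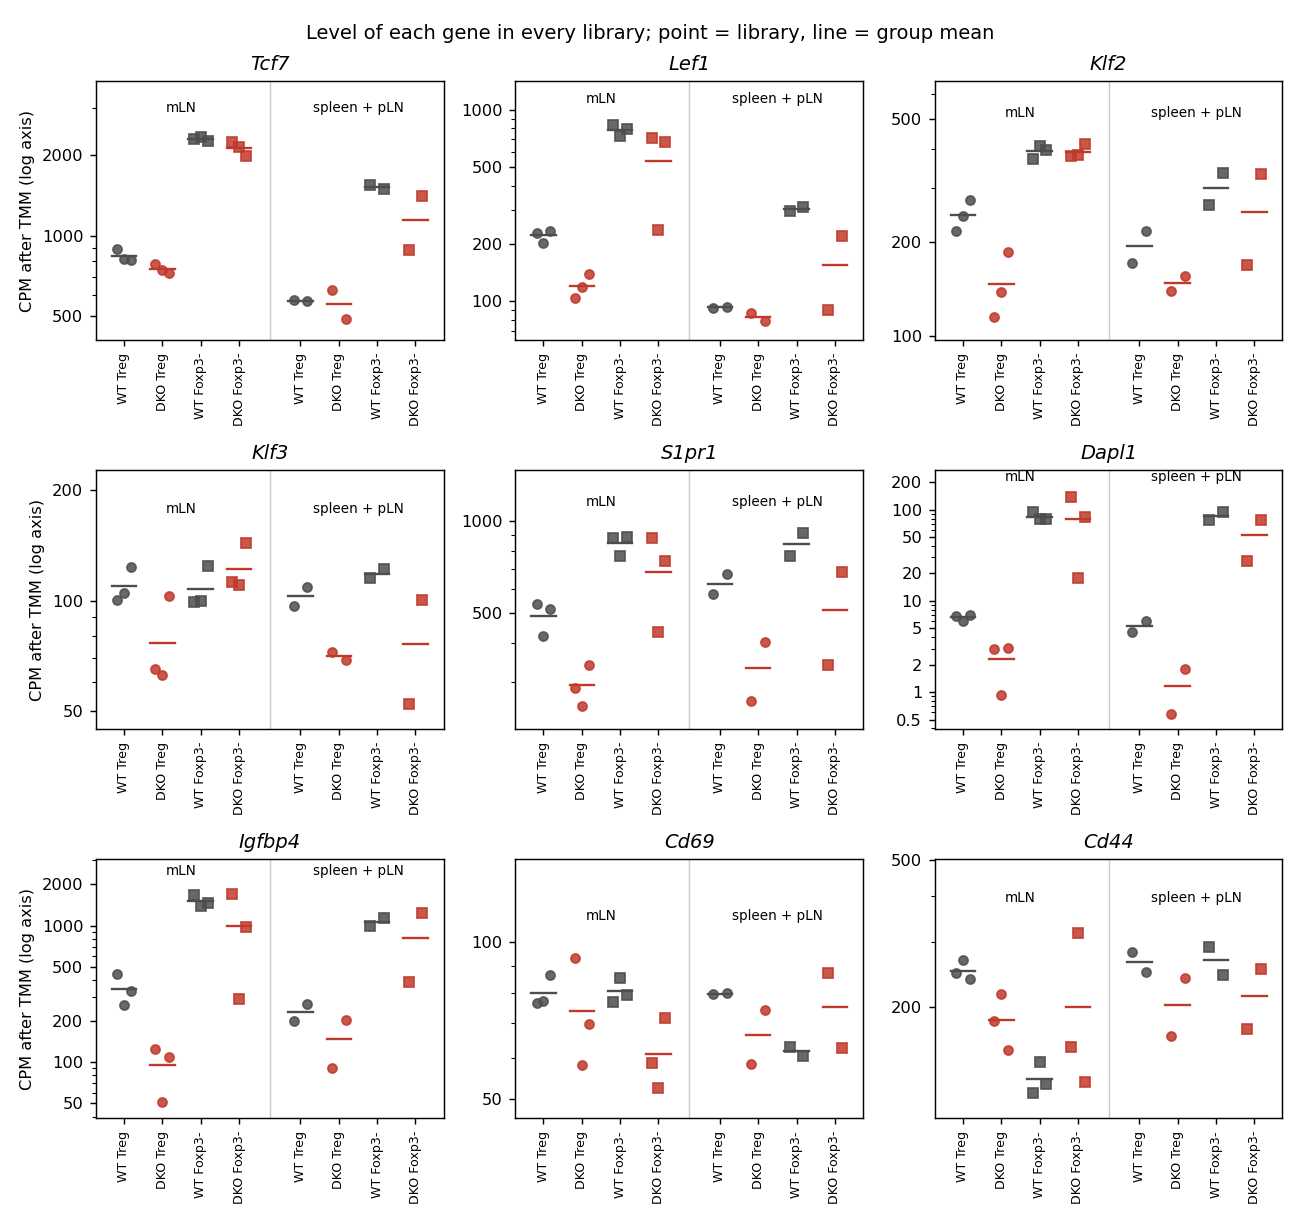
Level of each of the 9 genes in every library, as CPM after TMM scaling on a log axis. Points are libraries (grey WT, red DKO, circles Treg cells, squares CD4+Foxp3- cells) and lines are group means. Dapl1 in mLNs spans from 0.934 CPM in a DKO Treg library to 137 CPM in a DKO CD4+Foxp3- library.

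The first question was how far Treg cells and CD4+Foxp3- cells of WT mice differ in the naive programme. From here on levels are CPM scaled between libraries by the trimmed mean of M values (TMM), replicates are listed in the order 1 to 3, and a gene was called changed at a p of at most 0.05 after Benjamini-Hochberg adjustment over all genes tested and a fold change of at least 1.5 (edgeR's quasi-likelihood test). In mLNs of WT mice 6 of the 7 naive genes were lower in Treg cells and Cd44 was higher, which makes 7 of 9 genes called, where 10.1% of all genes were called and 3.14% were called lower. Dapl1 differed most, with 6.82, 5.95 and 7.08 CPM in WT Treg cells against 93.9, 78.1 and 79.3 CPM in WT CD4+Foxp3- cells. It was 12.7-fold lower (log2 fold change -3.66 ± 0.56 SE, adjusted p = 0.000713). Igfbp4 read 443, 261 and 334 CPM in WT Treg cells and 1662, 1388 and 1465 CPM in WT CD4+Foxp3- cells, 4.35-fold lower (-2.12 ± 0.48, adjusted p = 0.0096). For both genes no Treg library came near the lowest CD4+Foxp3- library.

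Of the transcription factors, Tcf7 read 890.2, 816 and 812 CPM in WT Treg cells and 2289, 2329 and 2259 CPM in WT CD4+Foxp3- cells from mLNs. Its replicates were the tightest of all members, and the 2.73-fold difference had the smallest adjusted p (1.32e-07). Lef1 fell further, by 1.83 on the log2 scale (SE 0.29, adjusted p = 0.00105), from 836, 727 and 797 CPM to 227, 202 and 234 CPM. Klf2 was 1.61-fold lower (217, 243 and 273 CPM against 371, 409 and 398 CPM, adjusted p = 0.00585). Klf3 was the exception among the naive genes: it read 100.3, 105 and 123 CPM in WT Treg cells and 99.2, 99.8 and 124 CPM in WT CD4+Foxp3- cells, a log2 difference of 0.02 ± 0.18 with full overlap (adjusted p = 1). S1pr1, the egress receptor, was 1.72-fold lower in Treg cells (535, 421 and 516 CPM against 878, 768 and 889.5 CPM, adjusted p = 0.0194). Cd69, its antagonist at the cell surface, did not separate the cell types, with 76.3, 77.3 and 86.4 CPM against 76.9, 85.5 and 79.2 CPM. Cd44 was higher in WT Treg cells, at 247, 268 and 238 CPM against 117, 143 and 124 CPM (0.97 ± 0.26, adjusted p = 0.022), a call that was lost whenever any 1 of the 6 WT libraries was left out (adjusted p = 0.0502 to 0.0853). Without WT Treg replicate 2, 4 of the 7 calls were left, and S1pr1 was called in 11 of 16 alternatives.

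In WT cells from spleen and pLNs, 4 of the 9 genes were called, all lower in Treg cells, where 4% of all genes were called and 1.52% were called lower. They were Dapl1 (4.61 and 6.06 CPM against 76.2 and 94.5 CPM, 15.9-fold, adjusted p = 0.000383), Igfbp4 (200.1 and 265 CPM against 995 and 1146 CPM, 4.6-fold, adjusted p = 0.0189), Tcf7 (573 and 570.1 CPM against 1542 and 1490.4 CPM, 2.65-fold, adjusted p = 0.00417) and Lef1 (92.5 and 93.5 CPM against 296 and 312 CPM, 3.27-fold, adjusted p = 0.00649). These are the genes with the largest folds in mLNs too. Leaving out either library of either WT group left 1 of the 4 calls. Klf2 (171 and 218 CPM against 265 and 335 CPM), S1pr1 (578 and 670.4 CPM against 771 and 913 CPM) and Klf3 (96.9 and 109 CPM against 115 and 122 CPM) were lower in both Treg libraries without reaching the threshold (adjusted p = 0.321, 0.643 and 0.811). Cd44 did not differ in this tissue (281 and 249 CPM against 291 and 245 CPM), and Cd69 read 79.5 and 79.8 CPM in Treg cells against 63.1 and 60.6 CPM (0.36 ± 0.18, adjusted p = 0.418).

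**Figure D2:**
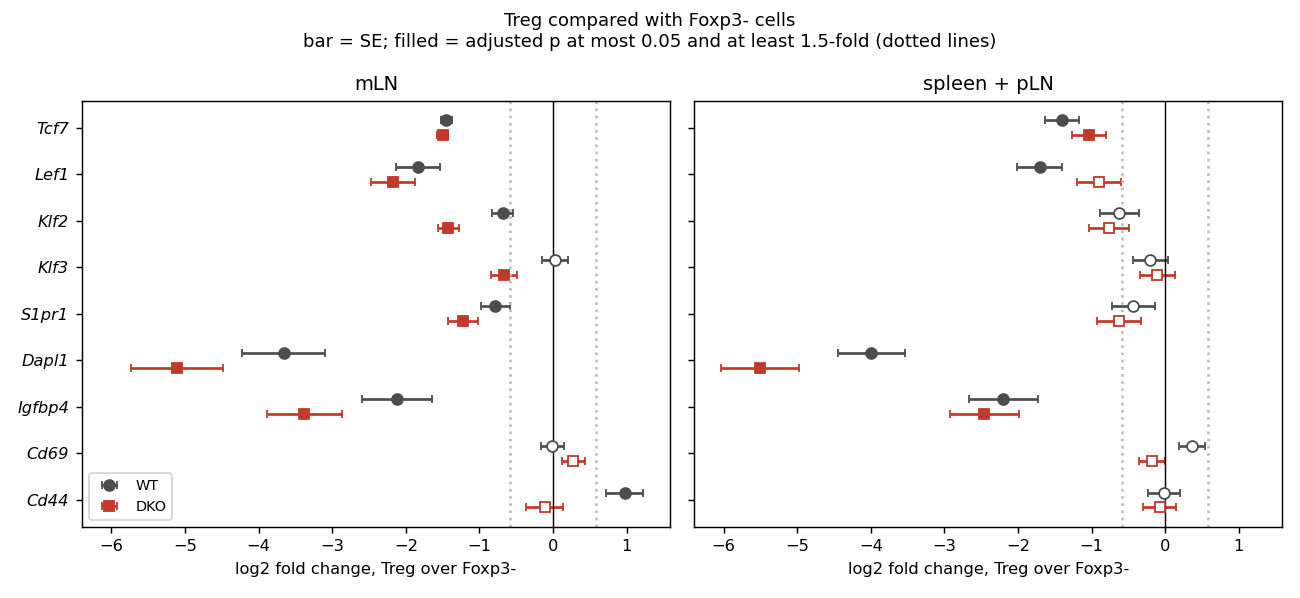
Log2 fold change of Treg over CD4+Foxp3- cells for each gene in WT (grey) and DKO (red) mice, left mLNs, right spleen and pLNs. Bars are standard errors, filled symbols are called genes and dotted lines mark 1.5-fold. Dapl1 lies farthest left in both tissues, at -3.66 (WT) and -5.11 (DKO) in mLNs.

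The second question was how these genes differed between Treg cells of DKO and WT mice. The study describes inflammatory disease in DKO mice, with activated Treg cells and other T cells. The parts of the deletion and of the disease in these differences were not tested. In mLNs 7 of the 7 naive genes had a lower estimate in DKO than in WT Treg cells, with a median log2 fold change of -0.75 against 0.0045 over all genes. The call was passed by 3 of the 9 genes, Klf2, S1pr1 and Igfbp4, all lower in DKO, where 11.9% of all genes were called and 3.43% were called lower. The groups did not overlap, with DKO lower, for 7 of the 9 genes, against 19.2% of all genes. Scaling bears on these values, since on the log2 TPM scale the median expressed gene itself was 0.13 higher in DKO than in WT Treg cells.

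Klf2 was the steadiest of the 3. It read 115, 138 and 186 CPM in DKO Treg cells against 217, 243 and 273 CPM in WT Treg cells from mLNs. It was 1.67-fold lower (log2 fold change -0.74 ± 0.14, adjusted p = 0.00353) and stayed called under all 15 alternatives tried. S1pr1, which KLF2 activates, read 287, 249 and 339.6 CPM against 535, 421 and 516 CPM, 1.68-fold lower (-0.75 ± 0.20, adjusted p = 0.0206). Igfbp4 read 125, 51.4 and 109 CPM against 443, 261 and 334 CPM, 3.64-fold lower (-1.86 ± 0.48, adjusted p = 0.0164). The S1pr1 and Igfbp4 calls were both lost without WT Treg replicate 1 and without DKO Treg replicate 2, which left 1 gene called, and S1pr1 alone was lost without WT Treg replicate 3 or DKO Treg replicate 1. S1pr1 was also lost on the TPM scale (adjusted p = 0.0744) and Igfbp4 with a robust prior (adjusted p = 0.0591). Over all 15 alternatives the estimates stayed below 0 (S1pr1 -0.87 to -0.58, Igfbp4 -2.11 to -1.56).

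The other naive genes did not pass. Lef1 read 104, 118 and 139 CPM in DKO Treg cells from mLNs against 227, 202 and 234 CPM in WT, 1.83-fold lower on average without overlap (-0.87 ± 0.29, adjusted p = 0.0508). It was called by DESeq2 (adjusted p = 0.0164) and in 5 of 15 alternatives in all (adjusted p = 2.28e-05 to 0.151). Tcf7, the relative of Lef1, read 781, 741 and 725 CPM against 890.2, 816 and 812 CPM, a difference of -0.16 ± 0.07 (adjusted p = 0.135) that was 0.01 on the TPM scale. Klf3 read 65.1, 62.6 and 103 CPM against 100.3, 105 and 123 CPM, where DKO replicate 3 reached into the WT range (-0.51 ± 0.18, adjusted p = 0.0592). Dapl1 read 2.98, 0.934 and 3.02 CPM against 6.82, 5.95 and 7.08 CPM (-1.53 ± 0.67, adjusted p = 0.134), without overlap but at a low read count. Neither activation gene was higher in DKO Treg cells: Cd69 read 93.4, 58.1 and 69.7 CPM against 76.3, 77.3 and 86.4 CPM (-0.12 ± 0.15, adjusted p = 0.624). Cd44 read 184, 217 and 154 CPM against 247, 268 and 238 CPM, lower in each DKO library (-0.44 ± 0.25, adjusted p = 0.258). These values are mRNA. For surface protein, the study's flow cytometry of spleen and pLNs showed more CD69+ cells among DKO Treg cells, and fewer cells low in CD44 and high in CD62L.

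CD4+Foxp3- cells from the same mLNs gave another picture. By edgeR 0 of the 9 genes were called between DKO and WT, where 3.43% of all genes were called; 2 genes, Cd69 and Cd44, had an unadjusted p under 0.05, as did 18.7% of all genes, and DESeq2 also called 0. The groups were apart, with DKO lower, for 3 of the 9 genes (Tcf7, Lef1 and Cd69), against 9.74% of all genes. The 3 DKO libraries were spread widely. Igfbp4 read 1710.2, 289 and 976 CPM in DKO against 1662, 1388 and 1465 CPM in WT, so replicate 1 lay above every WT library and replicate 2 far below the lowest. Dapl1 read 137, 17.9 and 82.6 CPM against 93.9, 78.1 and 79.3 CPM, Lef1 712, 236 and 679 CPM against 836, 727 and 797 CPM, and S1pr1 878, 434 and 740.0 CPM against 878, 768 and 889.5 CPM. In all of these genes replicate 2 was the low one. Klf2 did not follow: it read 379.7, 384 and 414 CPM in DKO and 371, 409 and 398 CPM in WT, and Klf3 read 113, 110.4 and 143 CPM against 99.2, 99.8 and 124 CPM. Tcf7 read 2239.9, 2133 and 1974 CPM in DKO against 2289, 2329 and 2259 CPM (-0.12 ± 0.07, adjusted p = 0.432). Cd44 was highest in that same replicate 2 (156, 318 and 126 CPM against 117, 143 and 124 CPM; 0.64 ± 0.26, adjusted p = 0.194), and Cd69 was lower in all 3 DKO libraries (58.6, 52.6 and 71.7 CPM against 76.9, 85.5 and 79.2 CPM; -0.40 ± 0.15, adjusted p = 0.171). Without DKO CD4+Foxp3- replicate 2 none of the 9 was called either, and the log2 differences were 0.15 for Cd44 (adjusted p = 0.76), -0.15 for Igfbp4 (adjusted p = 0.947), 0.41 for Dapl1 (adjusted p = 0.491), -0.17 for Lef1 (adjusted p = 0.647) and -0.05 for S1pr1 (adjusted p = 0.984). The higher mean of Cd44 thus rested on that library.

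Whether the genotype effect differed between the cell types was tested as an interaction. No member passed in mLNs (0 of 9 by edgeR, where 0.28% of all genes passed), 3 members had an unadjusted p under 0.05 (Klf2, Klf3 and Cd44), as did 10.9% of all genes, and DESeq2 called 1, Klf2 (adjusted p = 0.0282; over its 21 alternatives 0.0235 to 0.338). By edgeR the difference of effects, Treg minus CD4+Foxp3-, was -0.74 ± 0.20 for Klf2 (adjusted p = 0.153), -0.69 ± 0.25 for Klf3 (adjusted p = 0.302) and -1.09 ± 0.36 for Cd44 (adjusted p = 0.259). With the replicate number as a block within genotype, which pairs the 2 cell types by the number in their labels, Klf3 passed (-0.72, adjusted p = 0.0342; over its 21 alternatives 0.0272 to 0.537). Without DKO CD4+Foxp3- replicate 2, 4 members passed, Dapl1 (-1.96, adjusted p = 0.0165), Igfbp4 (-1.73, adjusted p = 0.0328), Lef1 (-0.73, adjusted p = 0.0196) and S1pr1 (-0.72, adjusted p = 0.0431), in a fit that passed 462 genes instead of 47. Without DKO Treg replicate 3 only Klf2 did (-0.95, adjusted p = 0.0235), in a fit that passed 66. Calls in Treg cells and their lack in CD4+Foxp3- cells therefore do not show a difference between the cell types.

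Within DKO mice the gap between the cell types stood out in all 7 naive genes of mLNs, each lower in Treg cells and called (7 of 9 genes, where 11.2% of all genes were called and 3.49% were called lower). Dapl1 was 34.6-fold lower (-5.11 ± 0.63, adjusted p = 0.000161), Igfbp4 10.4-fold (adjusted p = 0.000605), Lef1 4.50-fold (adjusted p = 0.000349), Tcf7 2.82-fold (adjusted p = 2.64e-07), Klf2 2.68-fold (adjusted p = 4.49e-05) and S1pr1 2.34-fold (adjusted p = 0.00122). Klf3, which did not separate the cell types in WT, was 1.59-fold lower in DKO Treg cells (-0.67 ± 0.18, adjusted p = 0.0185), a call lost in 5 of 16 alternatives. Cd44 and Cd69 did not differ between DKO Treg and CD4+Foxp3- cells (-0.11 ± 0.25 and 0.28 ± 0.15, adjusted p = 0.812 and 0.252). Without DKO CD4+Foxp3- replicate 2 the same 7 naive genes were called lower in Treg cells, with log2 differences of -5.62 for Dapl1, -3.86 for Igfbp4, -2.56 for Lef1 and -0.77 for Klf3, and Cd44 stood at 0.36 (adjusted p = 0.0607).

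**Figure D3:**
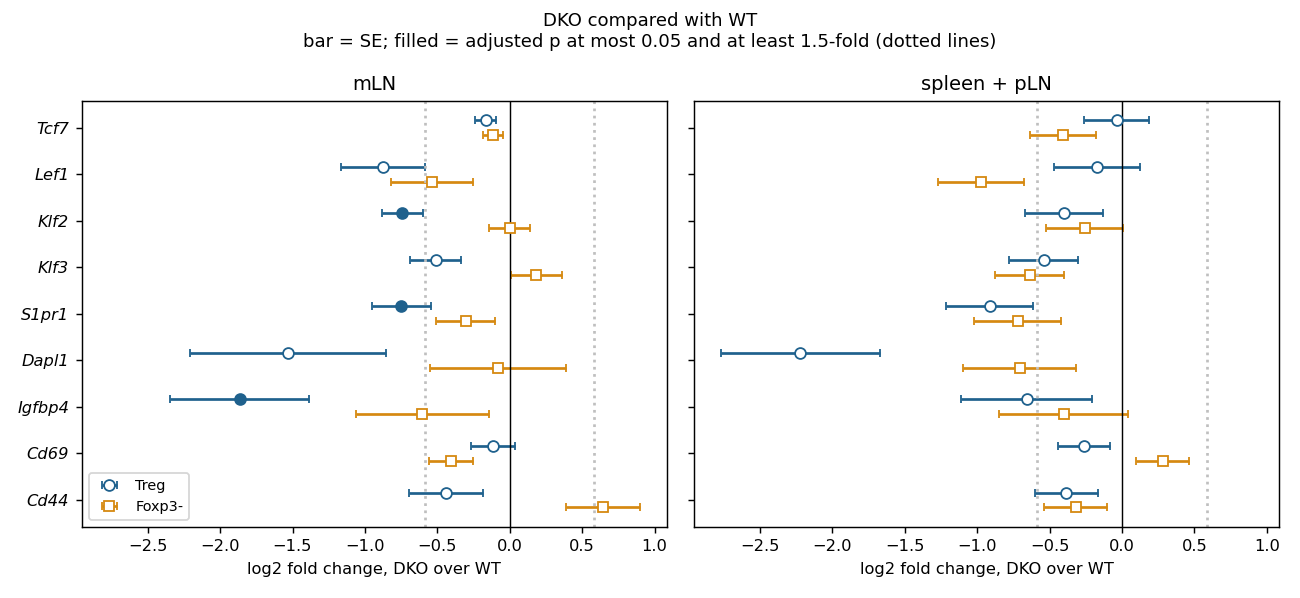
Log2 fold change of DKO over WT for each gene in Treg cells (blue) and CD4+Foxp3- cells (orange), left mLNs, right spleen and pLNs. Bars are standard errors and filled symbols are called genes, which here are Klf2 (-0.74), S1pr1 (-0.75) and Igfbp4 (-1.86) in mLN Treg cells.

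In spleen and pLNs, with 2 libraries a group, 0 of the 9 genes were called by edgeR between DKO and WT Treg cells, where 1.74% of all genes were called; 3 had an unadjusted p under 0.05 (Klf3, S1pr1 and Dapl1), as did 20.4% of all genes, and DESeq2 called 1, Dapl1 (adjusted p = 0.00475; over its 13 alternatives 5.57e-05 to 0.626). All 7 naive genes again had a negative estimate (median -0.54, against 0.018 over all genes), and 7 of the 9 genes had DKO below WT without overlap, against 26.1% of all genes. On the TPM scale the median expressed gene was itself 0.25 higher (log2) in DKO, and Tcf7 (0.28), Lef1 (0.16) and Cd69 (0.06) turned positive. Dapl1 read 0.572 and 1.77 CPM in DKO against 4.61 and 6.06 CPM in WT (-2.22 ± 0.55, adjusted p = 0.0636). S1pr1 read 259 and 405 CPM against 578 and 670.4 CPM (-0.91 ± 0.30, adjusted p = 0.119). Klf2 read 139.6 and 156 CPM against 171 and 218 CPM (-0.40 ± 0.27, adjusted p = 0.438) and Klf3 72.6 and 68.7 CPM against 96.9 and 109 CPM (-0.54 ± 0.24, adjusted p = 0.222). Tcf7 overlapped (625 and 489 CPM against 573 and 570.1 CPM), and so did Igfbp4 (91.3 and 204 CPM against 200.1 and 265 CPM), while Lef1 read 86.9 and 78.4 CPM against 92.5 and 93.5 CPM. Cd44 read 167 and 239 CPM against 281 and 249 CPM (-0.38 ± 0.22, adjusted p = 0.355), and Cd69 read 58.6 and 74.3 CPM against 79.5 and 79.8 CPM.

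In CD4+Foxp3- cells of spleen and pLNs the 2 DKO libraries were unlike each other in each naive gene. Replicate 1 was below both WT libraries in all 7, and replicate 2 was so in 4 of 7, by less (median log2 deviation from the WT mean -0.14 against -1.31). Lef1 read 90.2 and 219 CPM in DKO against 296 and 312 CPM in WT, Igfbp4 384 and 1235 CPM against 995 and 1146 CPM, Dapl1 27.6 and 77.1 CPM against 76.2 and 94.5 CPM, and S1pr1 339 and 683 CPM against 771 and 913 CPM. Klf2 (169 and 333 CPM against 265 and 335 CPM), Klf3 (52.2 and 100.2 CPM against 115 and 122 CPM) and Tcf7 (887 and 1404 CPM against 1542 and 1490.4 CPM), which did not follow in mLNs, did so here. None of the 9 genes was called (0 by edgeR, where 0.819% of all genes were called, 3 at an unadjusted p under 0.05 against 12.9% of all genes, 0 by DESeq2), with Lef1 nearest at -0.98 ± 0.30 (adjusted p = 0.155). Without replicate 1, the library that stood apart, 0 of the 9 were called in a fit that called 83 genes instead of 134. Lef1 was then at -0.48 (adjusted p = 0.418), Dapl1 at -0.15, S1pr1 at -0.31 and Tcf7 at -0.11, and Igfbp4 (0.20) and Klf2 (0.15) turned positive. Without replicate 2 all 7 naive genes were called lower, in a fit that called 2751 genes, for example Lef1 at -1.75 (adjusted p = 6.9e-06), and in both fits the lone DKO CD4+Foxp3- library is assumed to vary like the other groups. Unlike in mLNs, Cd44 was low in the library that stood apart (175 and 254 CPM in DKO against 291 and 245 CPM), whereas Cd69 was high in it (87.5 and 62.8 CPM against 63.1 and 60.6 CPM; 0.28 ± 0.18, adjusted p = 0.584).

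Between the cell types of DKO mice in spleen and pLNs, 3 of the 9 genes were called, all lower in Treg cells: Dapl1 (45.5-fold, adjusted p = 0.000181), Igfbp4 (5.49-fold, adjusted p = 0.0109) and Tcf7 (2.06-fold, adjusted p = 0.0257), where 3.77% of all genes were called and 1.61% were called lower. Without DKO CD4+Foxp3- replicate 1, 6 were called in a fit that called 1586 genes instead of 617, and without DKO Treg replicate 1, 1 was in a fit that called 185. No member passed the interaction in this tissue (0 of 9 by edgeR, where 0.00611% of all genes, a single gene, passed; 1 at an unadjusted p under 0.05, Dapl1 at -1.51 ± 0.68, against 5.53% of all genes; 0 by DESeq2). Without DKO CD4+Foxp3- replicate 2, Lef1 passed with a positive difference (1.58, adjusted p = 0.000539) in a fit that passed 674 genes, and without both DKO libraries numbered 1, Dapl1 passed (-1.45, adjusted p = 0.00355) in a fit that passed 412.

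The DKO libraries were then read one at a time against the WT mean of their cell type. In mLN Treg cells the naive genes lay below every WT library in 7, 7 and 6 of 7 cases for replicates 1, 2 and 3, with median log2 deviations of -1.08, -0.90 and -0.52. In mLN CD4+Foxp3- cells the counts were 2, 5 and 4 of 7 with medians of 0.06, -0.96 and -0.19. Both DKO Treg libraries from spleen and pLNs had 6 of 7 below WT (medians -0.50 and -0.31), whereas the CD4+Foxp3- libraries had 7 and 4 of 7 (medians -1.31 and -0.14). Dapl1 or Igfbp4 had the largest deviation of the 7 in 8 of the 10 DKO libraries, for example at -2.21 and -2.38 in mLN CD4+Foxp3- replicate 2 and at -2.62 and -2.71 in mLN Treg replicate 2. Tcf7 stayed between -0.21 and -0.10 in the mLN Treg libraries.

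**Figure D4:**
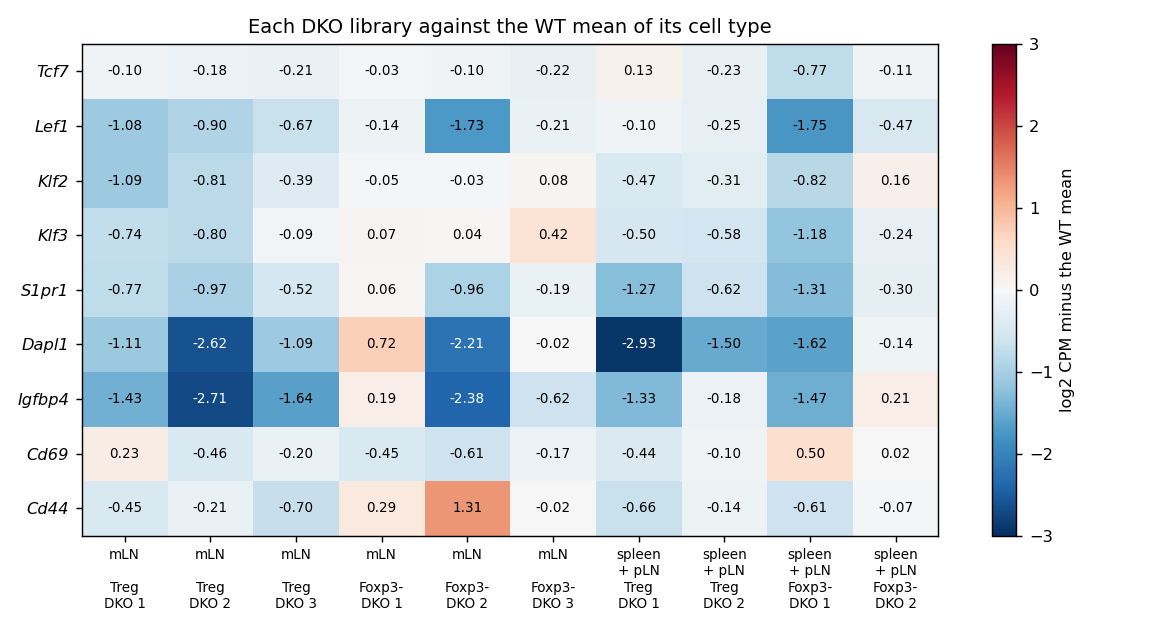
Log2 CPM of each gene (rows) in each of the 10 DKO libraries (columns) minus the mean of the WT libraries of the same cell type and tissue, blue for lower and red for higher. The mLN CD4+Foxp3- replicate 2 combines low Igfbp4 (-2.38), Dapl1 (-2.21), Lef1 (-1.73) and S1pr1 (-0.96) with the highest Cd44 (1.31), while Klf2 (-0.03), Klf3 (0.04) and Tcf7 (-0.10) lie near 0, and the spleen and pLN CD4+Foxp3- replicate 1 has low naive genes (Lef1 -1.75) with lower Cd44 (-0.61).

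Across the 12 mLN libraries the 6 naive genes other than Klf3 went together, with Pearson's r of log2 CPM between 0.826 and 0.989, such as 0.967 between Dapl1 and Igfbp4, 0.972 between Lef1 and S1pr1 and 0.989 between S1pr1 and Igfbp4. The same pairs had r of 0.972, 0.763 and 0.779 over the 8 libraries of spleen and pLNs. Klf3 was the least bound, at 0.503 with Tcf7 in mLNs and 0.454 in spleen and pLNs. Cd44 ran opposite to S1pr1 in mLNs (-0.58) and with it in spleen and pLNs (0.83). These r are descriptions: the points share 4 groups, so much of each value is the contrast of cell type and genotype. Among 8409 genes of at least 10 CPM, the genes most like each member in mLNs were Ikbke, Slc25a23 and Pdlim4 for Tcf7 (r = 0.986, 0.985 and 0.982), Fam78a, Tdrp and Mctp2 for Lef1 (0.992, 0.990 and 0.989), Mkl1, Arid3b and Add1 for Klf2 (0.977, 0.974 and 0.973) and Gbas, Prkrir and Zmym2 for Klf3 (0.902, 0.897 and 0.883). S1pr1 was nearest to Nsg2, Igfbp4 and Mllt10 (0.991, 0.989 and 0.989). Dapl1 was nearest to Ggt5, Lypd6b and Vipr1 (0.995, 0.993 and 0.988), and these 3 kept r of 0.965, 0.984 and 0.958 in spleen and pLNs. Igfbp4 was nearest to Rnf167, S1pr1 and Als2cl (0.992, 0.989 and 0.987). Several of these likenesses were weaker in the second tissue, for example Klf2 with Mkl1 (0.463) and Arid3b (0.527) and S1pr1 with Mllt10 (0.628). Of the activation genes, Cd69 was nearest to Rock2, Topors and Kcnh2 (0.898, 0.880 and 0.869 in mLNs, and -0.29, 0.19 and -0.28 in spleen and pLNs) and Cd44 to Izumo1r, Dhrs3 and Lbh (0.946, 0.945 and 0.943), of which Dhrs3 had -0.66 and Lbh 0.56 in spleen and pLNs, where Izumo1r has no value.

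Because Dapl1, Igfbp4, Lef1 and Tcf7 carried the largest gaps between the cell types, the stretches of their promoters that hold a motif of the factors named above are shown. In the RefSeq table of the GRCm38.p6 build 7 of the 9 members, all but S1pr1 and Cd69, had an entry, with 11 windows of 300 bases (250 before and 50 after a start site). The searched letters were CCACACCC for KLF factors, GTAAACA for FOXO factors, which maintain Klf2 and other genes of naive cells, and CTTTGA for TCF/LEF factors, each on both strands. They occur in 3.56%, 3.65% and 16% of all 32851 such windows. The capitals mark the match, which is the reverse complement in all but Dapl1, and each stretch reads 5′ to 3′ on the strand of its gene.
Igfbp4, KLF match 48 to 41 bases before the start, chr11:99041185-99041214, + strand: gacggcgctggGGGTGTGGccagggggccg
Tcf7, KLF match 69 to 62 bases before the second start, chr11:52282646-52282675, - strand: accgggggtggGGGTGTGGggggcgggttt
Dapl1, FOXO match 164 to 158 bases before the start, chr2:59484478-59484507, + strand: cactctgtcctGTAAACAtctacctggctt
Lef1, TCF/LEF match 180 to 175 bases before the fourth start, chr3:131156102-131156131, + strand: taaaatacatggTCAAAGgaaaataggtat
Lef1, TCF/LEF match 120 to 115 bases before the fourth start, chr3:131156162-131156191, + strand: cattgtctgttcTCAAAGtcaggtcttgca
The second Tcf7 window also held 1 FOXO match and no 2 matches overlapped. The windows of Klf2, Klf3 and Cd44, the first window of Tcf7 and the other 3 of Lef1 held none. The windows also differed in CG pairs, the target of TET enzymes: 45 and 17 in those of Tcf7, 32 in Klf2, 29 in Klf3, 27 in Igfbp4, 5 to 21 in Lef1, 6 in Cd44 and 5 in Dapl1, against a median of 7 over all windows. A match is a run of letters and not a bound site. In the mm9 build that the counts used (GENCODE M1 annotation), the genes themselves lie at chr11:98902558-98913969 (Igfbp4), chr11:52065873-52096681 (Tcf7), chr2:59322710-59343077 (Dapl1), chr3:130813389-130927274 (Lef1), chr8:74842932-74845555 (Klf2), chr5:65194628-65221368 (Klf3), chr3:115413351-115417973 (S1pr1), chr6:129217342-129225387 (Cd69) and chr2:102651298-102741822 (Cd44).

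The wider naive programme was read from 40 further genes of naive and quiescent T cells. In mLN Treg cells 17 of the 40 fell in DKO and 0 rose, with a median log2 fold change of -0.70, where 11.9% of all genes were called and 3.43% were called lower. On the TPM scale 6 of the 40 fell. Gpr83, an orphan receptor abundant in Treg cells, went from 142 to 53.3 CPM (means of 3; -1.41 ± 0.21, adjusted p = 0.000845). Als2cl went from 65.3 to 26.3 CPM (-1.31, adjusted p = 0.0244), Tgfbr3, a co-receptor for TGF-beta, from 28.4 to 11.8 CPM (-1.28, adjusted p = 0.0376), and Ly6c1 from 73.6 to 31.6 CPM (-1.22, adjusted p = 0.0076). The others included the homing receptor Ccr7 (-0.94), the survival factor Bcl2 (-0.93), the transcription factor Foxp1 (-0.87) and Txnip (-0.80), which restrains glucose uptake. In mLN CD4+Foxp3- cells 0 of the 40 were called (median -0.31), and 1 was, with a median of -0.08, without both DKO libraries numbered 2. Of the 40 in spleen and pLNs, 2, Tgfbr3 and Ly6c1, fell in Treg cells (median -0.54), where 1.74% of all genes were called, and 0 did on the TPM scale. Without both DKO libraries numbered 1, 10 of the 40 fell, in a fit that called 1283 genes instead of 285. With all libraries 0 of the 40 were called in CD4+Foxp3- cells of these organs (median -0.50), where 0.819% of all genes were called. Between the cell types of mLNs, 9 of the 40 were lower in WT Treg cells and 1, Gpr83, was higher (with pairing by replicate number 15 and 1, on the TPM scale 7 and 2), where 3.14% of all genes were called lower. In DKO mice 22 were lower and 1 higher (on the TPM scale 11 and 1), where 3.49% of all genes were called lower.

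**Figure D5:**
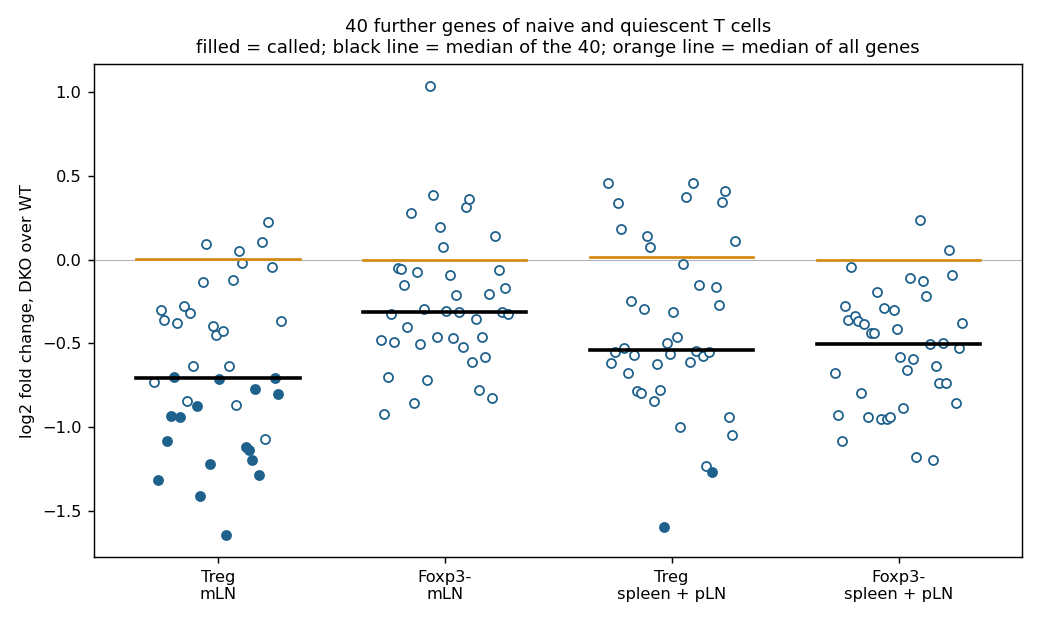
Log2 fold change of DKO over WT for the 40 further genes of naive and quiescent T cells, in the 4 combinations of cell type and tissue. Filled points are called genes, black lines the medians of the 40 (-0.70, -0.31, -0.54 and -0.50 from left to right) and orange lines the medians of all genes, which lie near 0.

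The activation side was read from 40 genes of activated and memory T cells. In mLNs 15 of the 40 rose in DKO Treg cells and 3 fell (median 0.55), and 16 rose and 1 fell in DKO CD4+Foxp3- cells (median 0.80), although Cd69 and Cd44 themselves passed in neither. Of all genes 11.9% and 3.43% were called in these comparisons, and on the TPM scale 1 of the 40 rose in CD4+Foxp3- cells. Without both DKO libraries numbered 2, 13 of the 40 rose in CD4+Foxp3- cells and the median was 0.45, while 19 rose in Treg cells. In Treg cells these included Mki67, a marker of cycling cells (from 18.2 to 82.2 CPM; 2.18 ± 0.24, adjusted p = 0.00013), Anxa2 (from 37.5 to 231 CPM, 2.63), S100a6 (from 31.4 to 154 CPM, 2.30) and Lgals3 (from 1.67 to 12.4 CPM, 2.88). There were 3 that rose and 1 that fell in Treg cells of spleen and pLNs (with a correction for gene length 4 and 0), and 1 rose in CD4+Foxp3- cells. Of all genes 1.74% and 0.819% were called in these 2 comparisons.

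Partners of the members were read from 5 further lists, whose counts stand against 11.9%, 3.43%, 1.74% and 0.819% of all genes called in mLN Treg, mLN CD4+Foxp3-, spleen and pLN Treg and spleen and pLN CD4+Foxp3- cells. In mLN Treg cells 3 of 22 TCF/LEF list genes and 2 of 20 egress list genes were called, shares near that background. Of 22 TCF/LEF factors and beta-catenin partners (median -0.07), 2 fell in DKO Treg cells from mLNs, Tcf7l1 and Themis (-1.30, from 106 to 43.0 CPM), and 1 rose, Runx3 (0.74, from 47.2 to 79.1 CPM), with 0 called in the other 3 comparisons of DKO and WT. Of the 12 other KLF genes tested, Klf12 (3.45, from 1.20 to 13.1 CPM) and Klf4 (2.26, from 6.92 to 33.5 CPM), a factor of quiescence, rose in mLN Treg cells while Klf2 fell. Klf12 was the single one called, and higher, in each of the other 3 comparisons. Of 20 genes of S1P receptors, egress and homing (median 0.0058), Gpr183, a receptor for oxysterols, fell in mLN Treg cells (-1.03, from 92.7 to 45.4 CPM) and Cxcr4 rose (0.96, from 43.1 to 83.5 CPM). Itga4 rose in mLN CD4+Foxp3- cells and Sgms1 fell in spleen and pLN Treg cells. Of 14 partners of CD44 and CD69, Spp1, which encodes the CD44 ligand osteopontin, Klrb1a (25.6 CPM in DKO, with a WT mean of 0.165 CPM that is under the floor) and Klrb1c (4.09, from 6.54 to 112 CPM) rose in mLN Treg cells, with 4, 2 and 1 higher in the mLN CD4+Foxp3-, spleen and pLN Treg and spleen and pLN CD4+Foxp3- comparisons. Klrb1a and Klrb1c lie in a family of similar genes whose reads may be shared. Of the 8 IGF and DAP genes tested in mLNs, Igf2r, which removes IGF2 from the cell surface, fell in Treg cells (-1.07, from 409 to 196 CPM) and Dap rose (0.61, from 62.1 to 94.7 CPM), but 0 of the 8 were called lower on the TPM scale and 0 higher with a correction for gene length. Igfbp7 was called higher in DKO CD4+Foxp3- cells of both tissues, and the median of the 8 in mLN CD4+Foxp3- cells was 0.90, or 0.24 over the 7 genes left to test without both DKO libraries numbered 2. On the TPM scale the only call of the 5 lists outside mLN Treg cells was 1 higher partner of CD44 and CD69 in mLN CD4+Foxp3- cells. Genes of these lists named beyond the 4 largest of each list in mLN Treg cells were picked after their values were seen.

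Markers of other cell types were counted beside these results, since all are bulk values in which fewer cells of a type and less RNA per cell cannot be told apart. From WT to DKO Treg cells of mLNs, the summed level of 6 myeloid markers went from 2.85 to 4.77 CPM (lowest to highest library) to 14.2 to 54.3 CPM, that of 3 plasma cell markers from 1.18 to 2.48 CPM to 2.52 to 65.5 CPM, and that of 4 NK cell markers from 9.54 to 11.4 CPM to 74.9 to 162 CPM, most of it Klrb1c. The myeloid markers did not move as one. Cd68 (mean 1.38 to 9.23 CPM) and Itgam (0.669 to 8.80 CPM) were higher in DKO, whereas the mean of Lyz2 was lower (1.31 to 0.549 CPM). Fcer1g read 0.0719 CPM in the lowest and 36.8 CPM in the highest DKO library. The sum of 6 B cell markers went from 26.8 to 35.5 CPM to 10.7 to 23.6 CPM, and that of 2 CD8 markers, mostly Cd8b1, from 16.03 to 20.8 CPM to 2.95 to 3.94 CPM. The B cell sum followed Cd79b (mean 30.2 to 9.62 CPM), while Ebf1 (0.0550 to 2.28 CPM) and Pax5 (0 to 1.48 CPM) were higher in DKO. Dendritic cell markers summed to 2.71 to 3.25 CPM and 3.78 to 9.78 CPM, and stromal markers to 1.41 to 2.88 CPM and 2.80 to 11.8 CPM, but their members went both ways. Zbtb46 (mean 1.11 to 6.31 CPM), Pdgfrb (0.120 to 5.61 CPM) and Pdgfra (0 to 2.30 CPM) were called higher in DKO, and Xcr1 (1.78 to 0.557 CPM) and Col1a2 (1.61 to 0.132 CPM) lower. In DKO CD4+Foxp3- cells of mLNs the myeloid sum was 8.34 to 26.6 CPM (WT 7.22 to 9.28), the plasma cell sum 2.84 to 71.7 CPM (WT 1.795 to 2.38) and the NK sum 53.8 to 141 CPM (WT 31.9 to 41.8). In spleen and pLNs the plasma cell sum was 19.3 to 93.2 CPM in DKO and 6.61 to 8.22 CPM in WT Treg cells, the myeloid sum 11.8 to 32.6 CPM and 2.84 to 4.59 CPM, the neutrophil sum 0.205 to 3.49 CPM and 0, and the NK sum 91.3 to 125 CPM and 8.84 to 9.99 CPM. In DKO CD4+Foxp3- cells of spleen and pLNs the plasma cell sum was 26.3 to 126 CPM (WT 4.26 to 4.41), the myeloid sum 20.9 to 29.1 CPM (WT 8.51 to 9.16), the NK sum 126 to 219 CPM (WT 76.0 to 126) and the neutrophil sum 0 to 3.45 CPM (WT 0). The endothelial markers Kdr and Tek were at 0 in all mLN groups but DKO CD4+Foxp3-, and the endothelial sum there (107 to 274 CPM) was mostly Pecam1, which T cells express. The Treg lineage markers (Foxp3, Il2ra, Ikzf2, Ikzf4 and Ctla4) summed to 1724 to 1904 CPM in WT and 1185 to 1517 CPM in DKO Treg cells of mLNs. Il2ra (mean 761 to 351 CPM) and Ikzf4 (72.0 to 26.8 CPM) were called lower there, whereas Foxp3 (312 and 305 CPM), Ikzf2 (305 and 316 CPM) and Ctla4 (386 and 345 CPM) were not called. In CD4+Foxp3- cells of mLNs the same sum was 112 to 229 CPM in DKO against 73.4 to 83.7 CPM in WT, without overlap. Ctla4 (mean 26.4 to 97.7 CPM) and Ikzf2 (26.3 to 50.1 CPM) were called higher there, while Foxp3 was not called (1.45 and 1.43 CPM). For CD4+Foxp3- cells of spleen and pLNs it was 131 to 559 CPM in DKO against 121 to 135 CPM in WT. The span came mostly from Ctla4 (50.4 and 344 CPM in the DKO libraries) and Ikzf2 (45.4 and 178 CPM), while Foxp3 read 0.251 to 0.741 CPM in DKO and 0.563 to 0.684 CPM in WT, and none of the 5 was called. The T cell marker sum was 2792 to 5023 CPM in all groups and the erythroid sum was at most 0.314 CPM. The part of these other cells in the levels of the 9 genes was not tested.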

How the data were processed

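Raw counts and TPM were taken from tables deposited by the authors, 1 of each for mLNs (12 libraries) and 1 of each for spleen and pLNs (8 libraries). Per the study's methods the authors made stranded poly(A) libraries, aligned single-end reads to mm9 with TopHat2 2.1.1 allowing at most 1 hit per read, and counted them per RefSeq gene with featureCounts (Subread 1.4.3-p1), strand included. bcl2fastq 2.20.0.442 is named for the spleen and pLN samples only. How the deposited TPM were computed is not given in the sources used here. The authors tested with DESeq2.

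Counts were fitted per tissue with edgeR 4.0.16 (R 4.3.3; TMM, glmQLFit and glmQLFTest, 4 groups in 1 fit, at least 1 read in total, BH adjustment over 16784 and 16357 genes). The biological coefficient of variation was 17.7% and 21.6%. SE is the absolute log2 fold change divided by the square root of F. A call needs an adjusted p of at most 0.05 and 1.5-fold, and for the interaction the adjusted p alone. The self-test on simulated counts ran first. Alternatives were DESeq2 1.42.0, its size factors in edgeR, filterByExpr, limma 3.58.1 on log2(TPM + 1), a robust prior, 2 groups only, a replicate block and each library left out. A length correction and leaving out both DKO libraries of a replicate number that stood apart were added after the data were seen. Likeness is Pearson's r of log2 CPM (prior count 2). Figures used matplotlib 3.10.9.

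Groups came from the sample labels. Libraries of a group differed by more than sampling noise (chi-square per degree of freedom 3.69 to 87.8), so each was counted as its own sample. The study calls the replicates biological, naming for mLNs the Treg cells. For mLN CD4+Foxp3- libraries p-values measure the spread between samples, which may be technical. Same-numbered Treg and CD4+Foxp3- libraries of mLNs deviated together within genotype (r = 0.35, 0.40 and 0.42 in WT, 0.14, 0.43 and 0.54 in DKO, over 8410 genes), so the number was taken to pair them. The pairing entered only the alternatives with a replicate block. All calls as reported came from the fit without it. The tables show 24 symbols of the spleen and pLN table turned into dates, which were read from its second gene column. The 9 genes and all lists were chosen with earlier results of these data known. From each list the 4 called genes with the largest change in DKO against WT Treg cells of mLNs were named, if at 10 CPM or more in the higher group and without overlap, and for each member the 3 genes most like it.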

Additional observations from a re-analysis of the deposited data

How the results depend on the processing

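No direction of a called difference turned in any alternative: of 1386 comparisons of a member with its value as reported, 1277 kept their side of the threshold, 61 lost the call and 48 gained it. Among the 1277 were 66 changes of sign, all in differences that passed in neither fit. The number of members called moved as follows, and the cause was not tested. For DKO against WT Treg cells of mLNs (3 as reported) it was 4 with DESeq2, 5 with 2 groups only, 5 with the length correction, 5 without both DKO libraries numbered 2, and 1 to 4 with 1 library left out. On the TPM scale S1pr1 lost its call there, and with a robust prior Igfbp4 did. For the mLN interaction (0) it was 1 with DESeq2, 1 with the replicate block, 4 with length correction and block, 4 without both DKO libraries numbered 2, and 0 to 4 with 1 library left out. For WT cell types of mLNs (7) leaving out 1 library gave 4 to 6, and for DKO cell types (7) 6 to 7.

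In spleen and pLNs, DKO against WT Treg cells (0) gave 1 with DESeq2, 1 with the replicate block (Dapl1, -2.26, adjusted p = 0.0402), 2 with 2 groups only, 1 with the length correction and 2 without both DKO libraries numbered 1. CD4+Foxp3- cells (0) gave 0 to 7 with 1 library left out. WT cell types (4) gave 2 with filterByExpr, 1 with limma on TPM, 1 with a robust prior, 2 with the replicate block and 1 with any of the 4 WT libraries left out. DKO cell types (3) gave 1 with filterByExpr, 1 with limma on TPM, 1 with 2 groups only, 6 without both DKO libraries numbered 1, and 1 to 6 with 1 library left out. The interaction (0) gave 1 without both DKO libraries numbered 1 and 0 to 1 with 1 library left out. Where a DKO group was left with 1 library, it was assumed to vary like the other groups.

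Between genotypes, same-numbered mLN Treg libraries did not all deviate together (r = -0.05 to 0.16), and the 2 pairs of spleen and pLN libraries share a number only (Treg r = 0.30). The block between genotypes adds Lef1 in mLN Treg cells (adjusted p = 0.0403); apart from the calls named here and in the report, no block changed whether a DKO against WT difference passed.

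Calls over all genes moved too. In DKO against WT they ranged over the alternatives that keep all libraries or drop a DKO pair from 24 to 1283 for Treg cells (285 as reported) and from 0 to 411 for CD4+Foxp3- cells (134) of spleen and pLNs, and from 2 to 929 for CD4+Foxp3- cells of mLNs (575). For the mLN interaction (47) the highest was 538. Of the 40 naive list genes, 6 instead of 17 fell in mLN Treg cells on the TPM scale. Of the 40 activation genes, 1 instead of 16 rose on that scale in mLN CD4+Foxp3- cells. With 2 or 3 libraries a group and Dapl1 at 0.572 to 7.08 CPM in Treg cells, its fold is the least precise.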

Other observations

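The T follicular helper list, 11 genes of the helper cells that support germinal centres, was measured beside the members. In mLNs 5 of the 11 were higher in DKO than in WT Treg cells, 5 of the 11 in CD4+Foxp3- cells, and 0 were lower in either, with median log2 fold changes of 0.84 and 1.32, where 11.9% and 3.43% of all genes were called. Without both DKO libraries numbered 2 8 of the 11 were higher among DKO Treg cells, and 4 among DKO CD4+Foxp3- cells. In Treg cells they were Il21, the helper cytokine (from 3.97 to 25.4 CPM; 2.66 ± 0.66, adjusted p = 0.014), the inhibitory receptor Pdcd1 (from 91.7 to 284 CPM; 1.63), the lineage factor Bcl6 (from 27.7 to 85.3 CPM; 1.62), the co-stimulator Icos (from 358 to 826 CPM; 1.21) and Tox (0.74). In CD4+Foxp3- cells they were Il21 (2.60), Icos (2.04), Pdcd1 (1.62), Maf (1.55) and Sh2d1a (0.64), which were not called on the TPM scale. In spleen and pLNs 0 of the 11 were higher, and Sostdc1 was lower in Treg cells, where 1.74% of all genes were called in Treg and 0.819% in CD4+Foxp3- cells. Pdcd1 and Icos stand in the activation list as well.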
